A study of Gossypium hirsutum with 24 samples.

Results

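The transcripts described here were chosen because their level in both vegetative tissues of a cotton series, young leaf and whole seedling, was well above that in all of its floral groups. A transcript was read through a probe set, a group of short array probes for it, and its level is given on the deposited log2 scale, on which a step of 1 is a doubling. A probe set was chosen if its leaf and seedling medians over 3 arrays were both at least 3 above the highest of the 6 anther and flower parts medians. Its leaf and seedling medians had to lie less than 2 apart, and its 3 anther medians within a range under 1. Of 23977 probe sets that were not controls, 168 met the rule. The comparison of vegetative with floral tissue, the leaf to seedling distance and the spread across anthers were therefore all used to choose the members, and their values below are a description without a test.

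RNA of upland cotton (Gossypium hirsutum) was hybridised to 24 Affymetrix cotton arrays, 3 for each of 8 groups. Anthers were taken by needle from flower buds of 5, 7 and 8 mm, and what was left of the bud, labelled flower parts, formed a group of its own at each size. Leaf was young leaf of month-old plants, and seedlings were harvested 5 days after germination. The series was built around the tapetum, which was absent, present or degenerated at its stages before, during and after meiosis, and the labels do not say which bud size stands for which stage. No cultivar, genetic change or treatment is named for any group, so all 8 are given as untreated tissue. The replicates are called biological, but the labels do not say from which plants they came or whether buds were pooled, so the p-values measure the spread between these samples. Which organs were kept in the flower parts is not stated either.

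Leaves and the green organs of seedlings are the main sites of photosynthesis and build chloroplasts, whereas anthers form pollen inside a wall whose innermost layer, the tapetum, feeds the developing pollen. The rest of a bud comprises the outer green organs, the petals and the pistil. In whole organs like these, fewer cells of a type and less RNA per cell cannot be told apart.

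The array annotation paired 7 of the 168 members with a single locus number and another with 2 loci. All 7 loci are listed as protein coding in the RefSeq gene table of the Gossypium_hirsutum_v2.1 assembly, and none has a product name there, so no function is given for any member. For the same reason, tissue markers and pathway lists that search by product name found 0 members, and the labelled tissues were not checked against markers. The other members are given by their rank from the widest to the narrowest gap, the gap being the lower vegetative median minus the highest floral median. Names ending in s_at or x_at mark probe sets that may hybridise to more than 1 related gene, and 62 members (36.9%) had them.

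On every leaf and seedling array all 168 members exceeded background, set at 2.23 from 69 negative control probe sets. On anther arrays 116 to 126 of them did so, and on flower parts arrays 136 to 143. The median over members was 2.43 to 2.76 on the 9 anther arrays and 3.56 to 4.36 on the 9 flower parts arrays. It was 9.36 to 9.86 on the leaf arrays and 9.32 to 9.37 on the seedling arrays. By these array medians flower parts lay between anthers and vegetative tissue, nearer to anthers. The rule itself set a distance of at least 3 to vegetative tissue. Members differed widely in where flower parts lay, as given below by class. Over all probe sets, 64.5% to 67.1% were above background on the 24 arrays. The share was 64.5% to 65.3% on flower parts arrays and 65.7% to 66.7% on anther arrays.

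**Figure D1:**
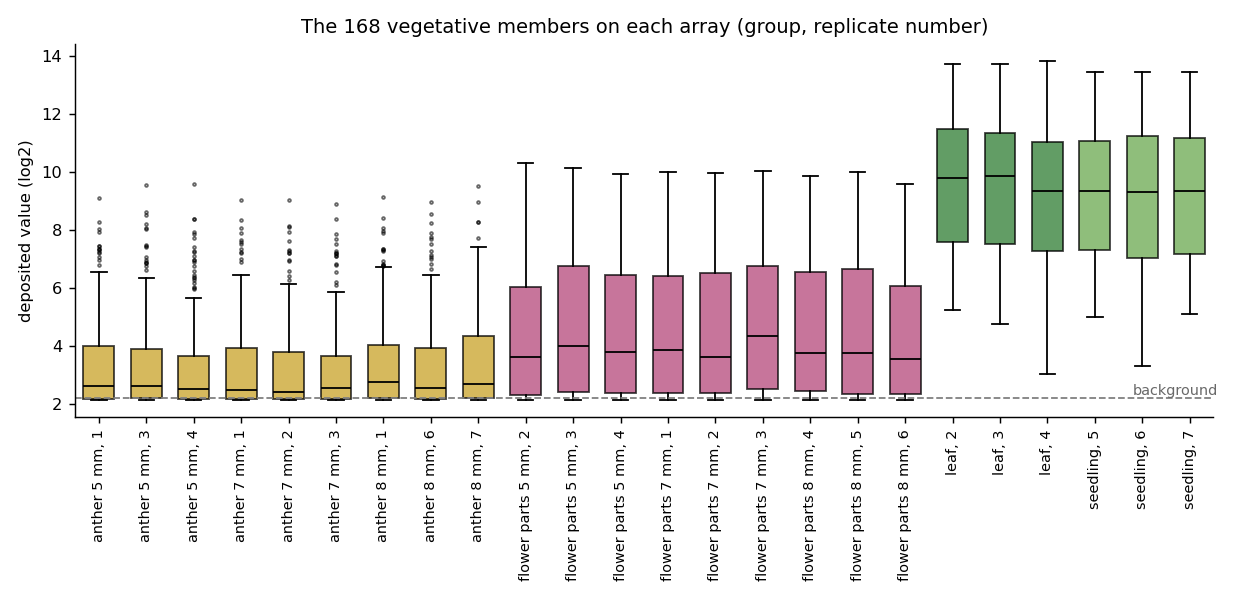
Deposited log2 values of the 168 members on each of the 24 arrays, grouped by tissue and labelled by replicate number. Boxes span the quartiles, the line is the median, whiskers reach 1.5 times the box height and points lie beyond them, and the dashed line is background at 2.23. Array medians run from 2.43 to 2.76 in anthers, from 3.56 to 4.36 in flower parts and from 9.32 to 9.86 in leaf and seedling.

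Some arrays stood apart within their groups. Leaf replicate 4 was the lowest leaf array for 131 of 168 members, by a median of 0.38 below the mean of the other leaf arrays, and for 16 members it lay more than 1 below both. The 7 mm flower parts replicate 3 was the highest of its group for 103 members and the 8 mm flower parts replicate 6 the lowest for 74. The 5 mm flower parts replicate 2 was more than 1 below both others for 11 members, and replicate 3 more than 1 above both for 12. Without leaf replicate 4 the rule found 174 probe sets, 167 of them among the 168.

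The gap ran from 3.01 to 10.71 with a median of 3.76. It was 6 or more in 17 members, 4 or more in 71, and between 3 and 4 in 97. The members nearest the limit had gaps of 3.01 and 3.02, and the nearest probe sets outside it 2.99 and 2.998. For the leaf to seedling distance the outermost members stood at 1.98 and -1.98, against 2.47 and -2.27 outside. For the anther range they stood at 0.94 and 0.99, against 1.01 and 1.04 outside.

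In 10 members every one of the 18 floral arrays was at or below background, so that only a lower bound on the vegetative excess can be given. These include the widest gaps. The first-ranked member measured 13.04, 12.96 and 12.55 on the leaf arrays and 12.87, 12.79 and 12.88 on the seedling arrays. All its floral arrays read 2.16, the lower limit of the deposited values, other than the 7 mm flower parts replicate 3 at 2.20. It was at least 1562-fold higher in vegetative than in floral tissue.

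The second-ranked member measured 12.89, 12.87 and 12.60 in leaf and 12.23, 12.24 and 12.26 in seedling, and at least 1030-fold less in floral tissue. The third reached 12.49, 12.49 and 12.01 in leaf and 11.42, 11.38 and 11.47 in seedling. Its floral arrays were at or near background, the highest being 2.55 on the 7 mm flower parts replicate 3. In all 3 of these members no leaf or seedling array came near any floral array, and in those ranked 2 and 3 every leaf array exceeded every seedling array.

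The fourth, whose probe set is annotated to both LOC107892288 and LOC107888692, was 11.35, 11.50 and 11.49 in seedling. In leaf it was 11.28, 11.06 and 9.96, the low value again from leaf replicate 4. Its floral arrays stood between 2.16 and 2.25.

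At the other end, 88 members were above background on all 9 anther and all 9 flower parts arrays, so their floral signal was low rather than missing. Their median leaf level was 10.88 and their median seedling level 10.70. The 26 members with fewer than 3 floral arrays above background were dimmer in vegetative tissue, with medians of 6.50 in leaf and 7.01 in seedling. The filter of the tests below asked for at least 3 of the 24 arrays above background. The 168 members all passed it, 142 of them also by their floral arrays alone.

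The highest anther level belonged to the member ranked 159, with medians of 9.57, 9.05 and 9.15 in 5, 7 and 8 mm anthers and 8.92 in 7 mm flower parts, below 13.33 in leaf and 12.65 in seedling. Its vegetative level was among the highest too, but with so high an anther level its gap was near the lower limit of the rule.

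The vegetative arrays lay above all floral arrays in 167 members (99.4%, against 8.99% of all 17666 tested probe sets), as the rule on medians nearly requires. The exception, ranked 88, was 9.41, 10.12 and 7.05 in leaf and 5.12, 9.84 and 8.94 in seedling. Its floral arrays ranged from 2.16 to 5.84, so seedling replicate 5 fell inside the floral range. A margin of 3 between every vegetative and every floral array, which is stricter than the rule, was met by 88 members. The rule used this contrast and the share over all tested probe sets was not counted, so nothing is read from it.

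**Figure D2:**
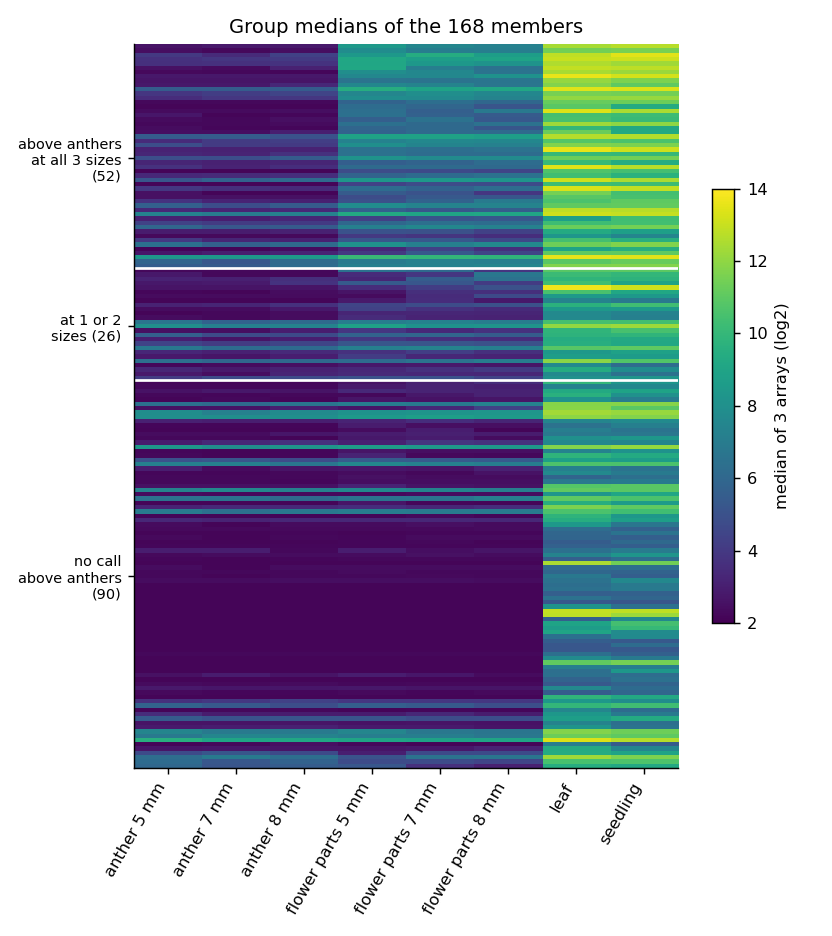
Group medians of the 168 members (rows) in the 8 groups (columns), coloured by log2 level. Rows are split by the number of bud sizes at which flower parts were called above anthers and ordered within each block by that difference. The 52 rows of the top block show an intermediate level in flower parts, while the 90 rows of the bottom block are nearly as dark in flower parts as in anthers.

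Leaf and seedling levels were alike by construction. The leaf median was above the seedling median in 108 members and the median difference was 0.16. The difference was within 0.5 in 93 members and within 1 in 136. Leaf was 1 or more above seedling in 24 members and seedling 1 or more above leaf in 8. All leaf arrays exceeded all seedling arrays in 54 members (32.1%, against 29.8% of all tested probe sets), and the reverse held in 35 (20.8%, against 27.0%). On group means, 20 members were 1 or more higher in leaf and 9 in seedling, which became 29 and 7 without leaf replicate 4. The rule used this contrast, so nothing is read from these counts.

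By medians, the largest leaf excess, in the member ranked 154, came from leaf values of 11.26, 11.30 and 10.94 and seedling values of 9.19, 9.28 and 9.38. The largest seedling excess by medians, in the member ranked 60, came from 9.37, 6.65 and 8.37 in seedling and 6.80, 6.39 and 6.21 in leaf. The first pair of groups was tight and separate, while the second rested on seedlings that differed widely among themselves.

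The members ranked 10 and 15, which read 2.16 on every floral array, were higher in seedling. The member ranked 10 was 10.34, 10.42 and 10.51 in seedling and 9.27, 8.97 and 8.05 in leaf, and the member ranked 15 was 10.03, 10.10 and 10.00 against 8.62, 8.65 and 8.08. In both, no leaf array reached any seedling array.

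**Figure D3:**
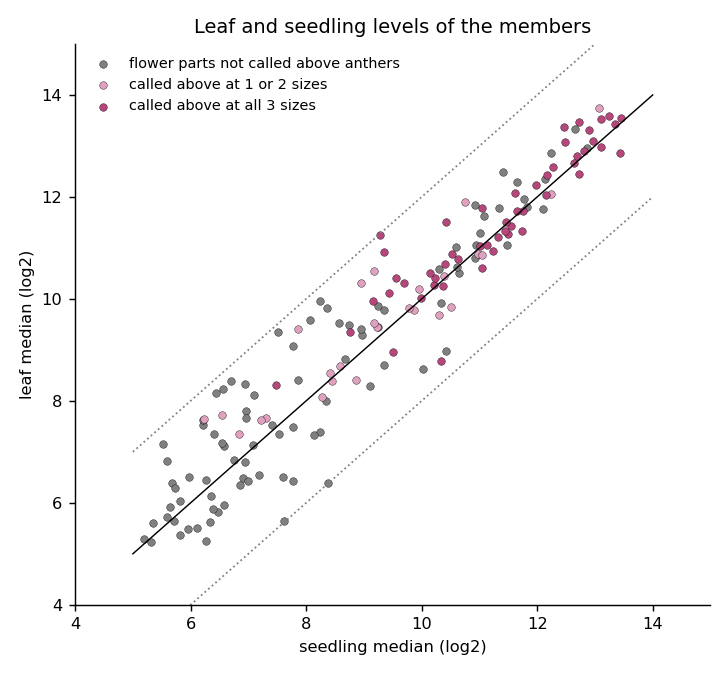
Leaf median against seedling median (both log2) for each of the 168 members, coloured by the number of bud sizes at which flower parts were called above anthers. The solid line marks equal levels and the dotted lines the limits of 2 set by the rule. Members called at all 3 sizes gather at the upper right, with medians of 11.38 in leaf and 11.45 in seedling.

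The rule sets no direction between flower parts and anthers of 1 bud size, so this difference was tested, in a linear model over all 24 arrays and all 17666 tested probe sets. The rule is not neutral, since it limits the range of the anther medians but not of the flower parts medians. The 69 probe sets left out by that limit alone had a median highest anther level of 5.93, against 2.77 in members. Their median highest flower parts level was 6.49, against 4.32. How much this raised the members' shares below was not tested. A call needed a Benjamini-Hochberg adjusted p under 0.05 and a log2 difference of at least 1. Flower parts were called higher than anthers in 63 members of 5 mm buds (37.5%, against 12.0% of all tested probe sets), 70 of 7 mm buds (41.7%, against 14.9%) and 56 of 8 mm buds (33.3%, against 13.6%). They were called lower in 2 members of 5 mm buds (10.0% of all tested probe sets), 1 of 7 mm buds (13.1%) and 2 of 8 mm buds (11.1%). The median difference over members was 0.50, 0.80 and 0.44 at the 3 sizes, while over all tested probe sets it was -0.10, -0.06 and -0.06.

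The rule itself leaves little room for falls, because it keeps anthers low. The anther mean was 1 or more above background in 56, 52 and 61 members at the 3 sizes, or 33.3%, 31.0% and 36.3%, against 76.2%, 75.8% and 75.5% of all tested probe sets. Among those members 28, 29 and 29 were called higher in flower parts (50%, 55.8% and 47.5%, against 12.1%, 15.2% and 14% of all tested probe sets with such an anther mean). In the same subset 2, 1 and 2 were called lower (3.57%, 1.92% and 3.28%, against 13.2%, 17.2% and 14.6%). Among the rest, where little or no room was left for a fall of 1, 35, 41 and 27 were called higher (31.2%, 35.3% and 25.2%, against 11.5%, 14% and 12.4%) and 0 lower. The share called lower over all tested probe sets of this kind was not counted.

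Arrays were compared as deposited. Hybridisation spike-ins averaged 9.30, 9.56 and 9.92 in 5, 7 and 8 mm anthers, and 8.84, 8.66 and 8.73 in flower parts. In spike-in scaling each array was shifted by its spike-ins, and values below a common floor of 3.04 were raised to it. That floor was above the members' median on every anther array, so it also compressed differences from low values. All results with spike-in scaling include it. The median flower parts minus anther difference over all tested probe sets was then 0.09, 0.49 and 0.77. Centring each array on its median moved it to -0.39, -0.45 and -0.50. With spike-ins 64, 84 and 81 members were called higher (38.1%, 50% and 48.2%, against 15.1%, 29.1% and 36.3% of all tested probe sets), so that at 8 mm the members' share was nearest to that of all probe sets. None was called lower at any size (background 2.86%, 2.85% and 2.08%). With centring 51, 60 and 48 members were called higher (30.4%, 35.7% and 28.6%, against 9.36%, 11.4% and 10.2%) and 3, 1 and 4 lower (1.79%, 0.595% and 2.38%, against 19.2%, 24.3% and 23.7%).

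**Figure D4:**
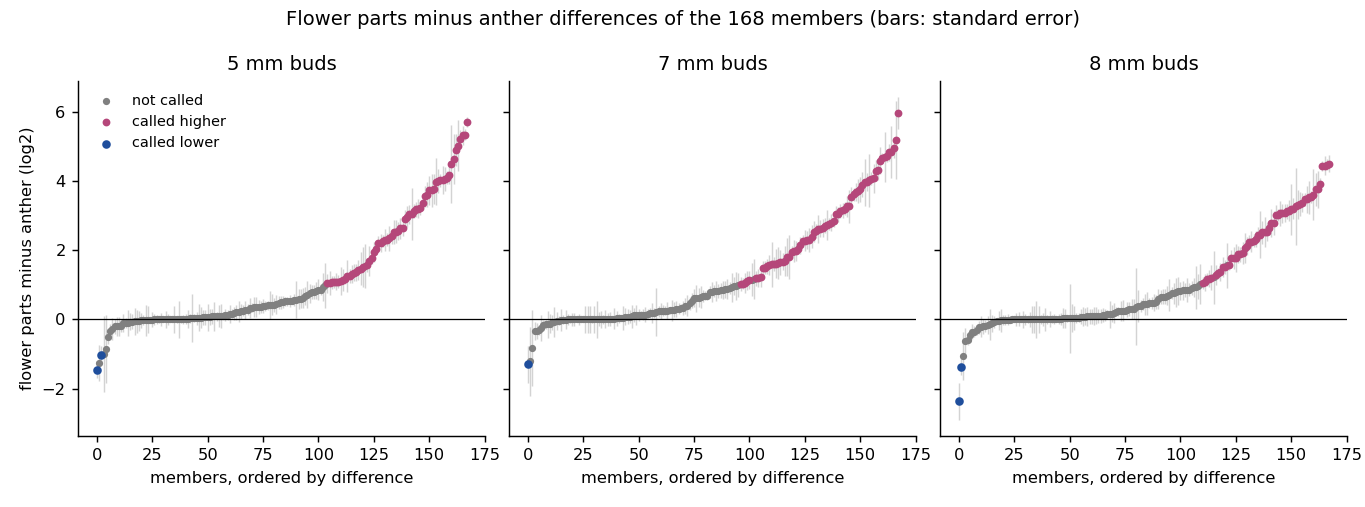
Flower parts minus anther difference (log2) for each member in 5, 7 and 8 mm buds, ordered by size within each panel, with bars for the standard error of the fit. Called rises number 63, 70 and 56 and called falls 2, 1 and 2.

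The calls divided the members into 3 classes. Flower parts were higher at all 3 sizes in 52 members (31.0%, against 7.68% of all tested probe sets), at exactly 2 sizes in 7 (background 5.61%), at exactly 1 size in 19 (6.19%) and at none in 90 (53.6%, against 80.5%). The 78 members with any such call were 46.4% of the set, against 19.5%. No member was called lower at all 3 sizes (background 3.43%), or higher at 1 size and lower at another (0.640%). In 57 members (33.9%, against 7.92%) all 9 flower parts arrays exceeded all 9 anther arrays, and the reverse held in 0 (background 10.1%).

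In the class of 52, the median level was 3.27, 3.15 and 3.27 in 5, 7 and 8 mm anthers, 6.49, 6.47 and 6.56 in flower parts, 11.38 in leaf and 11.45 in seedling. Flower parts stood at a median of 39.0% of the log2 distance from anther to vegetative level, between 19.5% and 55.5% over the class. These were the brighter members, although their median gap of 3.74 hardly differed from 3.78 in the class of 90. In that class the medians were 2.26 to 2.28 in anthers, 2.41 to 2.45 in flower parts, 7.91 in leaf and 7.61 in seedling. The class of 90 holds the 4 widest gaps and all 26 members with fewer than 3 floral arrays above background, whose floral values were nearly all at or below it. Without those 26, flower parts were not called higher at any size in 64 of 142 members (45.1%, against 79.5% of the 16814 tested probe sets with at least 3 floral arrays above background). Probe sets that can bind several related genes made up 26 of the 52 and 28 of the 90. The 8 mm flower parts replicate 6 was the lowest of its group for 40 of the 52.

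Among the 7 members with a locus number, 5 were called higher in flower parts at every bud size. That held for 31.0% of all members and 7.68% of all tested probe sets. Some of these calls, in LOC107947008 and LOC107954549, were lost in other settings, as given below. The clearest of the 5 was LOC107958776, ranked 80. In anthers it measured 4.12, 3.70 and 3.71 at 5 mm, 3.92, 3.92 and 4.06 at 7 mm, then 3.92, 4.06 and 4.08 at 8 mm. In flower parts it measured 8.81, 9.26 and 9.15, then 8.71, 8.61 and 9.09, then 8.96, 8.98 and 7.64. No flower parts array came near an anther array, and the rises were 5.23 (SE 0.25, adjusted p = 8.80e-12), 4.84 and 4.51. Leaf was at 12.91 ± 0.13 (SD, n = 3) and seedling at 13.11 ± 0.03, higher again than flower parts.

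LOC107943729, ranked 14, had the widest gap of these genes, 6.56. Its leaf arrays read 13.51, 13.48 and 12.96 and its seedling arrays 12.72, 12.68 and 12.72. Its anther arrays read 3.70, 3.99 and 3.22 at 5 mm, 3.44, 3.07 and 3.18 at 7 mm, then 3.55, 3.44 and 4.20 at 8 mm. Flower parts read 6.16, 6.56 and 6.10, then 6.01, 6.14 and 7.34, then 6.10, 6.29 and 5.56. The groups were again separate, with rises of 2.64 (SE 0.30, adjusted p = 1.41e-06), 3.27 and 2.25, and flower parts remained far below leaf.

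LOC107942112, ranked 24, was close to background on all anther arrays, between 2.37 and 2.47, where the same few values recur and give little measured spread. Its flower parts arrays read 6.37, 6.45 and 5.58 at 5 mm, 5.52, 5.65 and 5.84 at 7 mm, then 6.87, 6.99 and 4.10 at 8 mm. It was called higher in flower parts by about 3.74 (SE 0.47, adjusted p = 4.39e-06), 3.27 and 3.53. Every flower parts array was above every anther array, with replicate 6 of the 8 mm buds far below the other two. Leaf was at 13.28 ± 0.19 (SD, n = 3) and seedling at 12.43 ± 0.06.

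LOC107947008, ranked 58, was uneven between replicates in flower parts. Its arrays there read 2.72, 9.60 and 7.94 at 5 mm, 7.57, 7.22 and 7.64 at 7 mm, then 6.58, 6.83 and 3.18 at 8 mm, against 2.16 to 2.39 over all anther arrays. One replicate at 5 mm and one at 8 mm thus came close to anthers, while the 7 mm replicates were tight. The rises were about 4.50 (SE 1.12, adjusted p = 0.00310), 5.18 (adjusted p = 0.000817) and 3.27 (adjusted p = 0.0232). The 8 mm call was lost when either 8 mm flower parts replicate 4 or 5 was left out (2.74 and 2.62), or either 8 mm anther replicate 1 or 7 (3.25 and 3.22). In a fit of only the groups compared the 5 mm and 8 mm differences had adjusted p of 0.144 and 0.0626. With replicate number as a block in the fit the 8 mm difference was 2.70 and was not called (adjusted p = 0.137). In leaf LOC107947008 was 12.39 ± 0.08 (SD, n = 3) and in seedling 12.16 ± 0.05, without any such unevenness.

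LOC107954549, ranked 21, was the locus whose flower parts level moved with bud size. In flower parts it read 3.81, 3.98 and 3.98 at 5 mm, 5.18, 5.31 and 5.31 at 7 mm, then 5.00, 4.47 and 4.20 at 8 mm. In anthers it read 3.09, 2.73 and 2.73, then 2.96, 2.91 and 3.11, then 3.21, 3.09 and 3.39. Flower parts rose above anthers by 1.07 (SE 0.17, adjusted p = 5.29e-05), 2.27 and 1.33, and no group of flower parts overlapped anthers of its size. The 5 mm and 8 mm calls were lost with centred arrays and with quantile normalization, where the differences were 0.78 to 0.96. Within flower parts, 7 mm was 1.34 above 5 mm (SE 0.17, adjusted p = 0.000479), and all 7 mm arrays were above all 5 mm arrays. A second probe set of this locus stood at 2.16 in all 8 group medians, so the locus rests on 1 probe set.

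The remaining locus numbers did not show the same. LOC107906609, ranked 143, was the locus with the most floral signal, between 7.09 and 8.23 on anther arrays and between 7.91 and 9.01 on flower parts arrays. The difference was 0.83 at 5 mm, 1.14 at 7 mm (SE 0.25, adjusted p = 0.000934) and 0.82 at 8 mm, and only the 7 mm value passed the limit of 1. Without the 7 mm flower parts replicate 3 it was 0.83 there too, and it was 0.75 with centred arrays. Its leaf arrays read 12.25, 12.07 and 11.32 and its seedling arrays 12.34, 12.24 and 12.19. Its second probe set read only 4.66 in leaf and 4.39 in seedling, with a gap of 1.73, and was no member.

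LOC107958101, ranked 17, exceeded background on only 2 floral arrays. Its 7 mm flower parts read 2.22, 2.32 and 3.63, the other floral arrays stood at 2.17 or 2.18, and no difference was called. Its leaf arrays, 10.03, 9.79 and 9.82, all exceeded its seedling arrays, 8.41, 8.27 and 8.36.

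**Figure D5:**
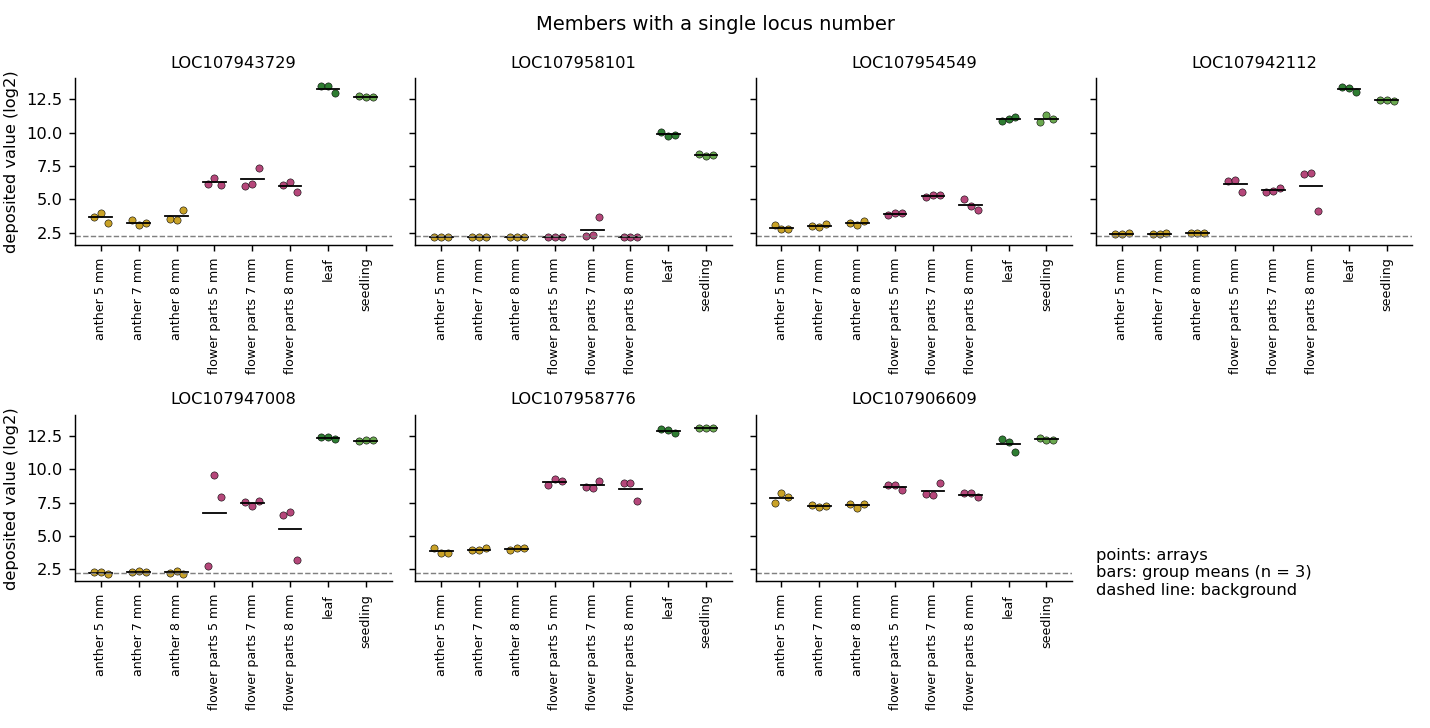
Deposited log2 values of the 7 members with a single locus number in the 8 groups. Points are arrays, short bars are group means (n = 3) and the dashed line is background at 2.23. In LOC107958776 flower parts lie about midway between anthers and vegetative tissue, in LOC107958101 they lie at background apart from 2 arrays of 7 mm buds, and in LOC107947008 the flower parts replicates scatter.

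Of the members without a locus number, the one ranked 71 had the largest rise at 5 mm. Its flower parts read 8.45, 8.23 and 8.44 at 5 mm, 7.52, 7.40 and 7.51 at 7 mm, then 7.29, 7.35 and 7.10 at 8 mm, against 2.56 to 3.06 over all anther arrays. The rises were 5.70 (SE 0.14, adjusted p = 1.72e-15), 4.67 and 4.44. The 5 mm flower parts stood above both larger sizes on every array, and the 8 mm level was 1.13 below the 5 mm level (SE 0.14, adjusted p = 0.000191). With spike-in scaling that step was -1.02 and was not called (adjusted p = 0.125). With replicate number as a block in the fit it was -1.03 and was not called either (adjusted p = 0.0661).

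The member ranked 149 rose by 5.35, 4.72 and 4.47, from 3.29 to 4.00 over the anther arrays to 8.15 to 9.23 over the flower parts arrays. The member ranked 121 had the largest rise at 7 mm, 5.96 (SE 0.47, adjusted p = 7.14e-09), with 4.89 at 5 mm and 3.76 at 8 mm. Its flower parts read 7.69, 9.44 and 8.42, then 9.42, 9.05 and 10.05, then 8.80, 8.66 and 7.07. All of these arrays exceeded its anther arrays, the highest of which was 4.73.

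Only 3 members were called lower in flower parts at any size (1.79%, against 21.7% of all tested probe sets). The rule leaves most members little room for a fall, so these shares are not alike in that respect. With an anther mean 1 or more above background, 3.57%, 1.92% and 3.28% of members were called lower at 5, 7 and 8 mm. For all tested probe sets with such a mean the shares were 13.2%, 17.2% and 14.6%. The member ranked 53 read 5.78, 6.78 and 6.18 in 5 mm anthers and 4.74, 5.07 and 4.59 in 5 mm flower parts, a difference of -1.45 (SE 0.25, adjusted p = 0.000139). At 8 mm its difference was -1.37 (adjusted p = 0.000215), and at 7 mm it was -0.34 and not called. At 5 and 8 mm the groups did not overlap. With spike-in scaling the differences were -0.99 and -0.18 and were not called, and neither was any other fall.

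The member ranked 140 fell by 2.37 at 8 mm (SE 0.53, adjusted p = 0.00114), from 5.86, 5.17 and 5.48 in anthers to 3.56, 2.75 and 3.07 in flower parts. Its 7 mm difference of -1.30 (adjusted p = 0.0489) lost its call when any 1 of the 7 mm arrays other than flower parts replicate 3 was left out. Its 5 mm flower parts, 2.75, 6.24 and 5.26, scattered across the anther values of 5.88, 6.14 and 6.00. The member ranked 124 had a 5 mm difference of -1.02 (SE 0.25, adjusted p = 0.00264), which was -0.57 without anther replicate 4, the array that read 4.82 where the others read 3.52 and 3.39.

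Between bud sizes, flower parts changed in few members. From 5 to 7 mm, 4 members rose (2.38%, against 0.730% of all tested probe sets) and 0 fell (background 0.232%), and 23 had an unadjusted p under 0.05 in either direction (13.7%, against 15.9%). From 7 to 8 mm, limma called 0 rises (background 0.0736%) and 0 falls (0.175%), with 25 members at an unadjusted p under 0.05 (14.9%, against 7.61%). Between 5 and 8 mm, 3 members rose (background 0.906%) and 2 fell (0.651%), with 42 at an unadjusted p under 0.05 (25%, against 16.4%). The comparisons of 7 and of 8 mm with 5 mm share the 5 mm arrays.

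These counts moved with single arrays. The 4 rises and 0 falls from 5 to 7 mm became 6 and 1 without 5 mm flower parts replicate 3, 3 and 3 without 5 mm replicate 2, and 2 and 0 without 7 mm replicate 3. With array weights they were 2 and 3, and without 4 arrays (5 mm anther replicate 1, 5 mm flower parts replicate 2, 7 mm flower parts replicate 3 and 8 mm flower parts replicate 6) 3 and 5, so rises outnumbered falls in only some settings. The 3 rises and 2 falls between 5 and 8 mm became 3 and 12 without 5 mm flower parts replicate 2, and 6 and 11 without the same 4 arrays. The 5 calls became 3 without 5 mm replicate 4, 3 without 8 mm replicate 4 and 2 without 8 mm replicate 5. Shares over all tested probe sets were not counted in these settings. Whether all probe sets moved likewise was not tested.

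The member ranked 138 moved most. Its flower parts read 4.09, 3.22 and 3.02 at 5 mm, 6.00, 5.54 and 4.58 at 7 mm, then 6.34, 6.53 and 6.58 at 8 mm, while its anthers stayed between 3.01 and 3.68. The rise from 5 mm was 1.93 at 7 mm (SE 0.30, adjusted p = 0.00310) and 3.04 at 8 mm (adjusted p = 1.96e-05). At 5 mm its flower parts overlapped anthers, and at both larger sizes they were above them on every array. In fits of only the groups compared, neither step passed the test (adjusted p = 0.503 and 0.0534).

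The member ranked 147 read 2.46, 3.77 and 3.47 at 5 mm and 6.76, 7.25 and 4.09 at 8 mm in flower parts, a rise of 2.80 (SE 0.54, adjusted p = 0.00778) that was not called without 8 mm replicate 4 (2.43) or 5 (2.19). The member ranked 34 fell by 1.16 (SE 0.25, adjusted p = 0.0190), from 4.63, 5.44 and 5.44 to 4.33, 3.80 and 3.92. Its call was lost without 5 mm flower parts replicate 3 or 4 or 8 mm replicate 5, and it and the member ranked 147 were not called in a fit of those groups alone (adjusted p = 0.180 and 0.295). With replicate number as a block in the fit the members ranked 34 and 147 were not called either (adjusted p = 0.302 and 0.0999). At 7 mm, where the anthers of the member ranked 34 were at background on all 3 arrays, its flower parts were at least 7.79-fold higher. The members ranked 102 and 107 also rose from 5 to 7 mm, by 1.23 (adjusted p = 0.0352) and 1.25 (adjusted p = 0.0442). Both calls were lost without the background filter, with replicate number as a block, and without 7 mm flower parts replicate 3. The member ranked 92 rose between 5 and 8 mm by 1.72 (adjusted p = 0.0246). That call was lost without 8 mm flower parts replicate 4 or 5, and with replicate number as a block.

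The difference between flower parts and anthers itself changed from 5 to 7 mm in 7 members, growing in 6 (background 3.61%) and shrinking in 1 (4.12%). From 5 to 8 mm it grew in 5 (4.55%) and shrank in 3 (6.27%), and from 7 to 8 mm it grew in 0 (1.52%) and shrank in 2 (2.47%), with 29 members at an unadjusted p under 0.05 in this last step (17.3%, against 20.6%). In all 13 members showed such a change (7.74%, against 15.8% of all tested probe sets), and no share of members exceeded that of all probe sets.

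Most members kept a narrow range across bud sizes, though many lay near the lowest value, where ranges are compressed. In the 90 members without a call above anthers the flower parts medians were 2.41 to 2.45. The same range over all tested probe sets was not counted. The range of the 3 flower parts medians had a median of 0.36 and was under 0.5 in 106 members and 1 or more in 21, reaching 3.31. The range of the anther medians, limited by the rule, had a median of 0.19 and was under 0.5 in 119 members.

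The spread between replicates set the precision of these levels. The median SD over members was 0.26 in leaf, against 0.16 over all tested probe sets, and 0.10 in seedling, against 0.10. In flower parts it was 0.25, 0.28 and 0.21 at the 3 sizes, against 0.23, 0.26 and 0.14. In anthers it was 0.10, 0.07 and 0.11, against 0.22, 0.13 and 0.17, and 24, 36 and 31 members had exactly the same value on all 3 arrays. Such groups have no measured spread, so a difference from them is approximate.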

How the data were processed

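Anther, flower parts, leaf and seedling RNA was measured on 24 arrays. The deposited values are log2 levels from GCRMA, per the submitters' processing notes, which give no version or options. The lowest value, 2.16, filled 26.2% of the table, which compresses differences from it. Scanner files were not used here. Precision is limited by having 3 arrays a group.

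The 155 control probe sets were left out. Background was the 95th percentile of 69 reporter and tag controls, for which per the labels no target was added, and 17666 probe sets with at least 3 arrays above it were tested. With limma 3.58.1 (R 4.3.3), 8 group means were fitted across the 24 arrays, and two-sided moderated p-values were adjusted by Benjamini-Hochberg over all tested probe sets. An "at least" fold sets the brighter mean against background. The same code was tested on simulated data.

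Members, lists and tests were chosen with earlier results of these data known. Named members are all those with a single locus, the 4 widest gaps, and up to 2 of the largest rises and 2 of the largest falls per tested comparison; others were chosen after their values were seen. Locus numbers come from the platform annotation, which gave a single symbol for 697 probe sets, and all 697 were found in the gene table. Alternatives covered the filter, scaling, floor, variance prior, array weights, arrays, thresholds, probe set type and replicate block. Figures used matplotlib 3.10.9.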

Additional observations from a re-analysis of the deposited data

Results flagged for a closer look

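The difference between flower parts and anthers itself differed between bud sizes in 13 members (7.74%, against 15.8% of all tested probe sets), by a test of the difference of differences in the same limma fit with the same call. From 5 to 7 mm it grew in 6 members (background 3.61%) and shrank in 1 (4.12%). It grew by 2.06 in the member ranked 138, 1.64 in that ranked 124, 1.4 in that ranked 107, 1.34 in that ranked 102, 1.2 in LOC107954549 and 1.18 in that ranked 78. In the member ranked 71 it changed by -1.03. In the member ranked 124 the 5 mm value rests on 1 high anther array, 4.82 against 3.52 and 3.39.

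From 5 to 8 mm it grew in 5 members (background 4.55%) and shrank in 3 (6.27%). The growth was 3.2 in the member ranked 147, 2.79 in that ranked 138, 2.37 in that ranked 92, 1.29 in that ranked 98 and 1.1 in that ranked 124. The changes in the other direction were -2.07 in the member ranked 106, -1.54 in that ranked 160 and -1.26 in that ranked 71. In the member ranked 106, flower parts read 4.18, 6.07 and 5.42 at 5 mm and 4.25, 4.10 and 3.68 at 8 mm, while anthers read 2.76, 2.85 and 2.46 and then 3.09, 3.82 and 3.75, so that both tissues moved towards each other. From 7 to 8 mm it grew in 0 members (background 1.52%) and shrank in 2 (2.47%), by -1.94 in the member ranked 106 and -1.27 in that ranked 34.

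Of these 17 differences none changed sign in any setting tried, but the calls were not stable. Of the 17, 11 lost their call with spike-in scaling, 12 at an adjusted p of 0.01 and a difference of 2, 6 with centred arrays and 5 with quantile normalization, and 8 lost it without 1 array. The last lie in the members ranked 71, 78, 102 and 107 (5 to 7 mm), 98 and 124 (5 to 8 mm), and 34 and 106 (7 to 8 mm). A check for single outlying arrays needs at least 4 arrays a group and could not be applied.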

How the results depend on the processing

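No difference of a named member changed sign: of 797 settings over 43 results, 738 kept the call and 59 lost it. Calls of flower parts against anthers numbered 65, 71 and 58 at 5, 7 and 8 mm, and 60 to 63, 65 to 76 and 56 to 64 when each array was left out. They were 42 and 46 at 5 and 7 mm under an adjusted p of 0.01 and a difference of 2, and 37, 38 and 28 among the 106 members whose names do not end in s_at or x_at. For flower parts, 7 mm minus 5 mm, the 4 calls became 2 without the filter, 2 with spike-in scaling, 1 in a fit of those groups, 0 at the strict threshold, 1 without s_at and x_at probe sets, 8 without 4 arrays that stood apart, and 2 to 7 when each array was left out. For flower parts, 8 mm minus 7 mm, the 0 calls became 1 with spike-in scaling, 1 with values raised to background, 5 with array weights, 1 without s_at and x_at probe sets, 5 without the 4 arrays, 1 without 7 mm replicate 1 and 2 without 8 mm replicate 6, a range of 0 to 2 over single arrays. For flower parts, 8 mm minus 5 mm, the 5 calls became 2 with spike-in scaling, 16 with array weights, 1 in a fit of those groups, 13 with no minimum difference, 2 at the strict threshold, 17 without the 4 arrays, and 2 to 15 over single arrays. The cause was not tested, other than fewer members tested without s_at and x_at names. For these counts, shares over all tested probe sets in the changed settings were not counted. The rule for members of the vegetative set gave 373 at a gap of 2, 71 at a gap of 4, 75 with spike-in scaling (67 of them shared), 106 without s_at and x_at names and 88 where every vegetative array had to be 3 above every floral array, and 154 to 180 when each array was left out.

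The labels do not say whether equal replicate numbers mark anthers and flower parts of the same buds. Deviations of same-numbered anther and flower parts arrays correlated between -0.22 and 0.12, and those of other pairs between -0.32 and 0.33. With so few pairs these values cannot decide whether samples were paired. With the replicate block the calls of flower parts against anthers were 63, 71 and 57, and those between flower parts sizes 2 (7 minus 5 mm) and 1 (8 minus 5 mm). The block ended 5 of the 17 calls of a difference between sizes, the 8 mm call of LOC107947008 (adjusted p = 0.137) and the 8 minus 5 mm calls of the members ranked 34 (0.302), 71 (0.0661) and 147 (0.0999). The 4 arrays were named in an earlier look at these data. Signal near the lowest value limits all of these counts, because differences from background are compressed.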
